A study of Rattus norvegicus with 24 samples.

Results

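Hippocampal RNA of ovariectomised female rats given estradiol (E2) for 5 weeks was compared with that of ovariectomised rats given vehicle for 7 weeks. The members were chosen by their labels: the 5 libraries titled Prevention and the 7 titled OVX, 12 of the 24 libraries of the series. Ovaries were removed at 6 months of age, and the rats of the 7 SHAM libraries kept theirs and received vehicle for 7 weeks. The remaining 5 libraries are called Treatment, numbered 1, 2, 5, 6 and 7, and come from ovariectomised rats with 3 weeks of vehicle followed by 2 weeks of E2. E2 and vehicle courses thus differ in length (5 against 7 weeks), and the labels give neither the dose nor the interval between surgery and tissue collection. The labels do not say whether each library is a separate animal, so p-values measure the spread between these samples. Markers of dentate gyrus granule cells and of CA1, CA2 and CA3 pyramidal cells were present in every library: the 16 pyramidal markers summed to 46346 to 67480.4 normalised counts in Prevention and 45904 to 67403 in OVX.

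Estradiol is the main ovarian estrogen; it acts through nuclear receptors that regulate transcription and through membrane-associated receptors that engage kinase and calcium signalling. Ovariectomy removes the main circulating source. In the hippocampus, a region needed for forming memories, estradiol is known for effects on dendritic spines, glutamate receptors, mitochondria and the reactivity of microglia. Values below are normalised counts per gene and library, and changes are differences of group means on the log2(value + 1) scale, given with their standard error (SE).

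The Prevention libraries shared a second property. LOC257642 lay between 128837 and 868948 normalised counts in the 5 Prevention libraries and at 728400.0 and 116939 in Treatment 1 and 2. It lay between 16621 and 38551 in OVX, between 19662 and 34469 in SHAM, and between 19740.4 and 23655 in Treatment 5, 6 and 7. These 7 high libraries had 18522 to 18747 features above 0, against 18094 to 18517 in the other 17. Column totals, in units of 1e6 normalised counts, were 36.5 to 38.8 in Prevention and 35.4 to 37.0 in OVX. The labels name no batch, and every Prevention library was high and every OVX library low, so estradiol and this property cannot be told apart in the comparison itself. The Treatment group holds libraries of both kinds under one labelled treatment. Therefore each change between Prevention and OVX is set below beside the difference between Treatment 1 and 2 and Treatment 5, 6 and 7, called the Treatment split, which shares no library with it. The SE and the calls of Prevention minus OVX do use the Treatment libraries, through the spread estimated over all groups. The split was made from LOC257642, rests on 2 against 3 libraries, and had a median SE of 0.135, against 0.0873 for Prevention minus OVX, so a small split value does not show that a gene is free of the property.

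Prevention differed from OVX in 49 of 16119 tested genes (0.304%), 32 higher (0.199%) and 17 lower (0.105%), by limma at an adjusted p under 0.05. An unadjusted p under 0.05 was found for 3006 genes. Higher genes included the kinase gene Sik1, the zinc exporter gene Slc30a1, the calcium pump gene Atp2b2, the fibronectin gene Fn1 and the sterol genes Insig1 and Fdft1. Lower genes included the lysosomal and immune genes Cd68, Grn, Lgals9, RT1-T24-4 and Traf3ip3, and the mitochondrial and ribosomal genes Cox17, Bola1 and Rps24. The Prevention and OVX values did not overlap for 39 of the 49 called genes, and did not overlap for 1.86% of all tested genes. Since the calls rest on these same libraries, that count is a description. The split between higher and lower calls was 29 and 27 after quantile normalisation and 25 and 21 after upper quartile rescaling. With Treatment entered as 2 means in place of 1, limma called 254 genes (163 higher, 91 lower), including all 49. With Prevention and OVX fitted alone it called 5: LOC257642, LOC500035, Rdm1, UNKOWN_ENSRNOT00000074325 and LOC100364435. The first 4 are among the 49. The other 45 of the 49, Sik1, Cd68, Grn, Insig1 and Slc30a1 included, were not called in that fit. Single libraries moved the count: it was 4, 18, 1 and 13 without Prevention 1, 2, 3 and 4, it was 11, 10, 12 and 24 without OVX 1, 2, 3 and 6, and it was 168, 96, 481 and 180 without OVX 4, OVX 5, OVX 7 and Treatment 1. Rdm1 remained called in each of the 17 fits that left out 1 library of these 3 groups.

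Of the 49 called genes, 42 had the same sign in the Treatment split, as had 64.1% of all tested genes. In 25 of them (18 higher, 7 lower) the Treatment split was also at least 50% as large as the change, which held for 51.5% of all tested genes. In 17 (10 higher, 7 lower) the sign was the same and the split was smaller than that, and in 7 (4 higher, 3 lower) the sign was opposite. In 28 of the 49, both Treatment 1 and 2 lay beyond all of Treatment 5, 6 and 7 in the direction of the change, against 21.5% of all tested genes. These 28 comprised 23 of the first class, 5 of the second and 0 of the third. The 49 calls came from a fit with 1 Treatment mean, in which a gap between Treatment libraries adds to the spread. Genes with a split were therefore harder to call, and the shares above depend on that. With 2 Treatment means, 180 of the 254 called genes were in the first class. By itself, the Treatment split had 4 called genes (0.0248%), all higher in Treatment 1 and 2: Rdm1, LOC257642, LOC500035 and a feature without a symbol (UNKOWN_ENSRNOT00000074325). Since LOC257642 chose the split, and these features follow it, those calls are a description. Fitted on the Treatment libraries alone, the split again had 4 calls, of which Rdm1 was shared and Pcdh10, Med26 and LOC100912937 were others, named here after their values were seen. The direct test of whether a change differed from the Treatment split called 0 genes (0%) in limma, with a smallest adjusted p of 0.999. An unadjusted p under 0.05 was found for 573 of 16119 genes, a share below 0.05 itself. That test had a median SE of 0.160. Entering the 7 high libraries as a covariate gives the same test, and it left none of the 49 called. Over the 49 called genes, the median size was 0.35 for the change, 0.16 for the Treatment split in the same direction, and 0.16 for their difference. Across all 16119 genes, which are not independent replicates, the change and the Treatment split had a Pearson r of 0.238 and a Spearman rho of 0.322.

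**Figure D1:**
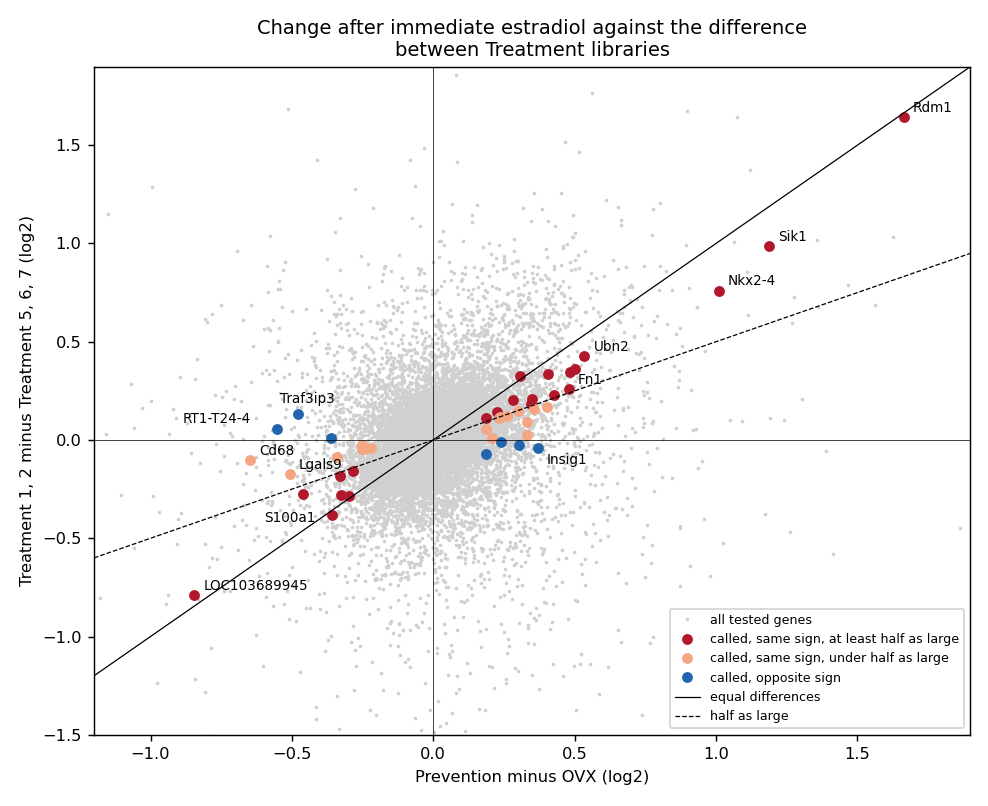
Change between Prevention and OVX (x axis, log2) against the difference between Treatment 1 and 2 and Treatment 5, 6 and 7 (y axis, log2) for tested genes within the axis limits; the 49 called genes are coloured by class, with 3 called features beyond the upper right corner (LOC257642, LOC500035 and a feature without a symbol). Rdm1, Sik1 and S100a1 sit near the line of equal differences, while RT1-T24-4, Traf3ip3 and Insig1 sit across the zero line of the Treatment split.

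The largest rises were those that mark the 7 high libraries, and Rdm1. LOC257642 chose the Treatment split, so its values are a description. In Prevention 1 to 5 it measured 147173, 159539, 868948, 148495 and 128837, and in OVX its lowest, median and highest values were 16621, 17889 and 38551 (change 3.23, SE 0.63). Prevention 3 stood far above the other 4, as Treatment 1 (728400.0) stood above Treatment 2 (116939). For LOC500035 Prevention 3 was again the highest, with 13561, 11703, 68769, 11988 and 10431 in Prevention 1 to 5 and 1337 to 3205 in OVX. Its change was 3.12 (SE 0.63) and its Treatment split 3.78 (SE 0.61). The feature UNKOWN_ENSRNOT00000074325 measured 159324 to 642411 in Prevention and 14609 to 41819.9 in OVX, and changed by 3.36 (SE 0.60), with a Treatment split of 3.81 (SE 0.54).

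Rdm1, which encodes an RNA recognition motif protein linked to the response to DNA damage, measured 1436, 1220.1, 1192, 1117 and 1169 in Prevention 1 to 5. In OVX its lowest, median and highest values were 323, 401 and 421, and in SHAM it ran from 339.9 to 449. It measured 1299 and 1227 in Treatment 1 and 2 and 398, 427 and 387 in Treatment 5, 6 and 7. The 7 high libraries thus all lay above 1100 and the other 17 all below 450, with nothing between, whatever their labelled treatment. The change was 1.66 (SE 0.23, limma adjusted p = 0.00278) and the Treatment split 1.64 (SE 0.12), a difference of 0.02 (SE 0.15).

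Sik1 encodes salt-inducible kinase, which cyclic AMP signalling induces and which restrains the coactivators of the transcription factor CREB. It measured 2098, 2824, 3561, 1969 and 1676 in Prevention 1 to 5, against a lowest, median and highest of 839, 969 and 1667 in OVX. The lowest Prevention library and OVX 3, the highest of its group, were nearly level, and the groups did not overlap. In Treatment 1 and 2 Sik1 measured 1959 and 1690.1, and in Treatment 5, 6 and 7 it measured 986, 918 and 853. The change was 1.19 (SE 0.20, limma adjusted p = 0.0175), the Treatment split 0.99 (SE 0.25), and the difference between them 0.20 (SE 0.29). Treatment 5, 6 and 7, with estradiol in the last 2 weeks, did not lie above OVX (-0.16, SE 0.19).

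**Figure D2:**
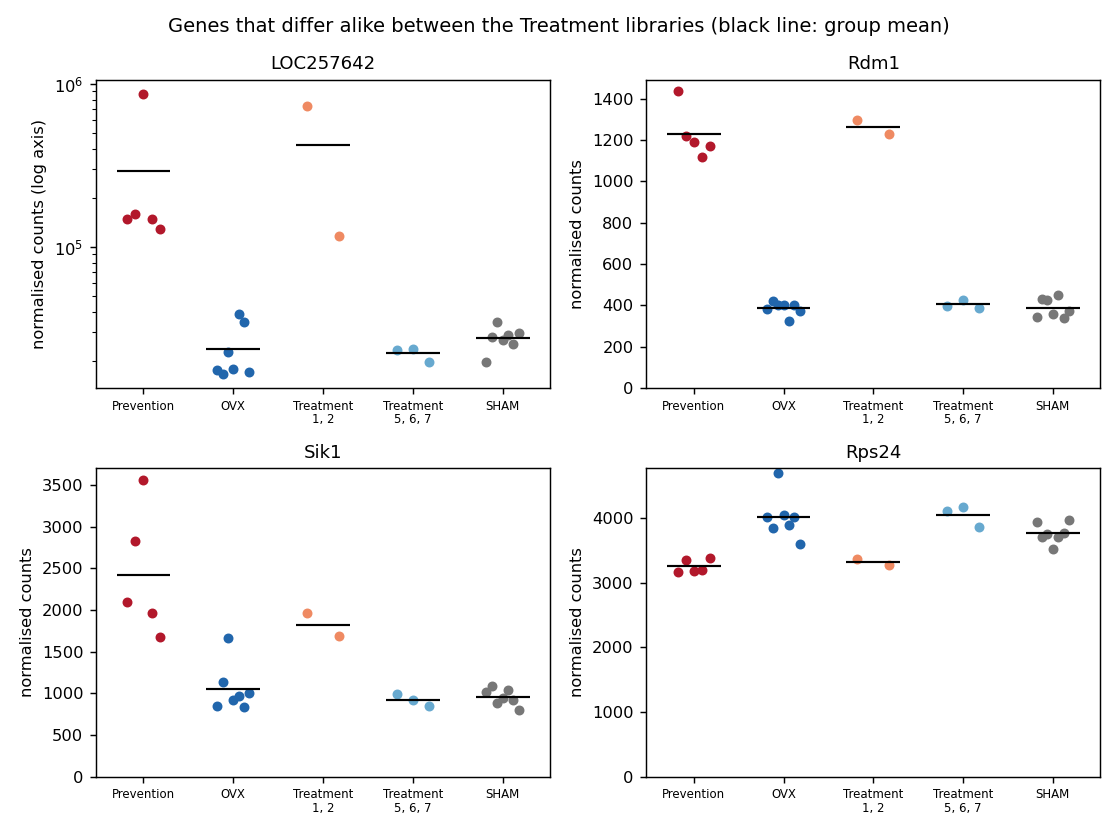
Normalised counts (y axis; log axis for LOC257642 only, from 0 for the others) of 4 genes by group, with Treatment divided into 1, 2 and 5, 6, 7; points are libraries and black lines group means. In each panel Treatment 1 and 2 lie with Prevention and Treatment 5, 6 and 7 lie with OVX, as for Rdm1 (1117 to 1436 in Prevention, 323 to 421 in OVX).

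Gene lists, here and below, were chosen with earlier results of these data known, so their counts are a description. Sik1 belonged to a list of 24 genes of the CREB pathway, all tested. Of these, 19 had a positive change and 5 a negative one, with a median of 0.09 against 0.00 over all tested genes, and Sik1 was the single member called. The list's Treatment split had a median of 0.01, with 12 members higher and 12 lower. Its next members by p were Pde10a, a cyclic nucleotide phosphodiesterase (0.21, Treatment split 0.33), Pde4d, another (0.34, split 0.09), and Prkaca, a catalytic subunit of protein kinase A (0.10, split 0.02), with limma adjusted p values between 0.131 and 0.139. Immediate early genes, which neurons transcribe within minutes of activity, were higher in 29 of 41 and lower in 12, with a median of 0.16, a Treatment split of 0.09 and no member called. Egr2 measured 209 ± 109 in Prevention and 114 ± 50.4 in OVX (SD, n = 5 and 7; change 0.80, SE 0.33; split 0.88).

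Among the called genes with a RefSeq promoter in build GRCr8 (33 of 49, windows of 250 bases before to 50 after the start site), 3 held the palindromic cyclic AMP response element TGACGTCA, which CREB binds: Ubn2, Purb and Dhx36. The element was found in 525 of 27457 promoters of the same length (1.91%), searched on both strands, where it reads alike. The 3 genes all rose, and their Treatment splits were in the same direction, so the 250 bases before each start site are shown, in the direction of the gene, with the element in capitals.
Ubn2 (chr4:68133011-68133260, plus strand): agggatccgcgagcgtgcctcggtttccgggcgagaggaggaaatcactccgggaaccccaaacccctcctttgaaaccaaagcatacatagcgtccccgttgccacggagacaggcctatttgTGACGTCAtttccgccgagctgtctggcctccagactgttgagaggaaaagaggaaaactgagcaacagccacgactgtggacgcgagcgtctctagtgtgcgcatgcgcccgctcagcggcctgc
Purb (chr14:85558780-85559029, minus strand): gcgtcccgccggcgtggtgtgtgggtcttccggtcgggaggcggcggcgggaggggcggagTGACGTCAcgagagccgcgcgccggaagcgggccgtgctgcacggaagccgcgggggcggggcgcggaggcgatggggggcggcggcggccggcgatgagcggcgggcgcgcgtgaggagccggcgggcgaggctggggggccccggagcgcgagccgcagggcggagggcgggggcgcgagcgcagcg
Dhx36 (chr2:149044192-149044441, minus strand): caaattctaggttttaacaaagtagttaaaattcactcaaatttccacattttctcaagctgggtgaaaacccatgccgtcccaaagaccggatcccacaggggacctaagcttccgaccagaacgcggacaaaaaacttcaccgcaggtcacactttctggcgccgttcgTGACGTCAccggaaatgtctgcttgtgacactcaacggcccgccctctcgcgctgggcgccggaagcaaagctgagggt
The element starts 126, 189 and 79 bases before the start site of Ubn2, Purb and Dhx36. These 8 letters do not occur in the Sik1 window, which holds cgacgtca, different from the element in its first letter only. Shorter or inexact forms of the element were not searched. Other motifs searched on both strands were the sterol element core TCACCCCAC (0 of 33 called, 0.495% of all), the lysosomal CLEAR core TCACGTGA (1 of 33, Megf9; 0.867%), the interferon element core GAAANNGAA (4 of 33: Cox17, Grn, Lgals9 and Rps24; 9.5%) and the estrogen receptor recognition unit AGGTCA (3 of 33: Cox17, Dhx36 and Rps24; 15.7%). No match of one motif overlapped a match of another in these promoters. The matches are letters in a window, and binding was not measured.

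Ubn2 encodes ubinuclein, a subunit of the complex that deposits the replication-independent histone variant. It measured 1585, 1596, 1929, 1616 and 1484 in Prevention 1 to 5 and had a lowest, median and highest of 918, 1235 and 1331 in OVX. Treatment 1 and 2 measured 1775 and 1402, above the 1199, 1231 and 1099 of Treatment 5, 6 and 7. The change of 0.53 (SE 0.11, limma adjusted p = 0.0393) stood beside a split of 0.42 (SE 0.15). Purb, a single-stranded DNA and RNA binding protein that represses transcription and joins RNA transport granules, measured 4240.4 to 4703 in Prevention and 2326 to 3792 in OVX. Its change was 0.50 (SE 0.11) and its split 0.36 (SE 0.15). Trnp1, a chromatin-associated protein known from cortical progenitors, rose by 0.48 (SE 0.10, split 0.35), from 865 to 1142 in OVX to 1193 to 1608 in Prevention.

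Dhx36, a helicase that unwinds guanine quadruplexes in RNA, belonged to the class with a smaller split. It measured 3446 to 3684 in Prevention and 2650.1 to 3281 in OVX (change 0.26, SE 0.05, limma adjusted p = 0.0248), with a split of 0.12 (SE 0.07).

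Other rises shared with the Treatment split were of single genes of differing roles. Fn1 encodes fibronectin, an extracellular matrix glycoprotein. It measured 3284, 2389, 2382, 2575 and 3003 in Prevention 1 to 5 against 1732, 1917 and 2167 as the lowest, median and highest in OVX. It measured 3057 and 2549 in Treatment 1 and 2, above 2423, 2299 and 2287 in Treatment 5, 6 and 7, while all 5 Treatment libraries lay above every OVX library. The change was 0.48 (SE 0.09, limma adjusted p = 0.0248), the split 0.26 (SE 0.13), and Treatment 5, 6 and 7 differed from OVX by 0.27 (SE 0.10). Of the 55 matrix genes listed, 27 were higher and 28 lower (median -0.01), and Fn1 was the only one called.

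Akap10, an anchoring protein for protein kinase A, measured 950.4 to 1040.2 in Prevention and 722 to 851 in OVX, and its change of 0.31 (SE 0.06) differed from its split of 0.33 (SE 0.08) by less than either SE. Znrf2, a membrane-associated ubiquitin ligase, measured 1179 to 1358 and 932 to 1131 (0.35, SE 0.06; split 0.21, SE 0.08). Fam8a1, a component of the ubiquitin ligase complex for misfolded proteins of the endoplasmic reticulum, measured 1687 to 1871 in Prevention; its OVX range of 1257 to 1758 overlapped only through OVX 7, as the other 6 stayed at or below 1424 (0.35, SE 0.07; split 0.18, SE 0.10). Impad1, a Golgi phosphatase needed for sulfation, rose by 0.28 (split 0.20), Ptpn9, a tyrosine phosphatase, by 0.19 (split 0.11), Tmem56 by 0.43 (split 0.23) and RGD1311595 by 0.22 (split 0.14).

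Nkx2-4, a homeobox transcription factor, was low in every library and measured 81.3, 63.3, 46.9, 47.6 and 44.7 in Prevention 1 to 5 against 21.8, 26.1 and 39.9 as the lowest, median and highest in OVX. It measured 29.7 and 29.1 in Treatment 1 and 2 and 13.6, 16.7 and 21.5 in Treatment 5, 6 and 7. The change was 1.01 (SE 0.22, limma adjusted p = 0.0393) and the split 0.76 (SE 0.31). Nkx2-4 had been placed in a list of markers of thalamus and habenula, tissue beside the hippocampus. In Prevention minus OVX, 15 of the 20 tested members were higher (median 0.33), with Nkx2-4 alone called, and in the Treatment split 17 of the 20 were lower (median -0.60). The part of that tissue in the rise of Nkx2-4 was not tested.

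The falls shared with the Treatment split included genes of mitochondria and ribosomes and a calcium-binding protein. S100a1, an EF-hand protein that binds calcium, measured 580.4, 578, 596, 611 and 661 in Prevention 1 to 5 and 662, 794 and 872 as the lowest, median and highest in OVX. Prevention 5 and the lowest OVX library were nearly level. Treatment 1 and 2 measured 615 and 583, Treatment 5, 6 and 7 measured 803, 787 and 754. The change was -0.36 (SE 0.08, limma adjusted p = 0.0481) and the split -0.38 (SE 0.10). Cox17, the copper chaperone of cytochrome c oxidase, measured 816 to 972 in Prevention and 987 to 1351 in OVX (-0.33, SE 0.07; split -0.28, SE 0.09). Rps24, a protein of the small ribosomal subunit, measured 3166 to 3386 and 3595 to 4696 (-0.30, SE 0.06; split -0.28, SE 0.07). All 3 genes were lower in both Treatment 1 and 2 than in each of Treatment 5, 6 and 7.

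Bola1, a mitochondrial protein of iron-sulfur cluster biology, measured 346, 341, 350.4, 411 and 468 in Prevention 1 to 5, and the last value lay within the OVX range of 421 to 596. Its change was -0.46 (SE 0.10) and its split -0.27 (SE 0.14). LOC103689945 had the largest fall of the 49, -0.85 (SE 0.17), from 1761 to 3130.1 in OVX to 1035 to 1696 in Prevention, with a split of -0.79 (SE 0.22). LOC688613 fell by 0.28 on the log2 scale (split -0.16). A feature without a symbol, UNKOWN_ENSRNOT00000072917, measured 838 to 1038 in Prevention and 1133 to 1339 in OVX (-0.33, SE 0.06; split -0.18). Another, UNKOWN_ENSRNOT00000004086, rose from 401 to 543 in OVX to 559 to 663 in Prevention (0.41, SE 0.08; split 0.34). In both features, Treatment 1 and 2 lay beyond all of Treatment 5, 6 and 7.

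The list to which Rps24 belongs, and lists of oxidative phosphorylation and proteasome genes, moved in the same direction as groups. Cox17 was not a tested member of the oxidative phosphorylation list. Of 59 cytosolic ribosomal protein genes, 54 were lower in Prevention and 5 higher, 28 of the lower ones at an unadjusted p under 0.05, with a median of -0.12, and Rps24 alone was called. In the Treatment split 55 of 59 were lower, with a median of -0.17. Of 70 nuclear genes of oxidative phosphorylation, 62 were lower, with a median of -0.08, and 67 were lower in the Treatment split, with a median of -0.17. None was called in either. SHAM libraries, all low in LOC257642, also lay below OVX on average. The mean log2 value of the ribosomal list was 12.165 in Prevention, 12.272 in OVX and 12.174 in SHAM. For oxidative phosphorylation it was 11.717, 11.809 and 11.756. Of 44 proteasome genes, 41 were lower in Prevention (median -0.08) and 33 in the Treatment split (median -0.07). Atp5i, a subunit of ATP synthase, measured 2044 ± 124 in Prevention and 2522 ± 347 in OVX (SD, n = 5 and 7; change -0.29, SE 0.07, limma adjusted p = 0.0622; split -0.26). The 12 mitochondrially encoded genes were divided, 6 higher and 6 lower (median 0.01). Over all tested genes the medians were 0.00 for both contrasts.

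Changes in both contrasts followed the length of the gene. A span in the reference was known for 13750 of the 16119 tested genes (85.3%), and these were ordered by span and divided into 5 groups of 2750 genes. In Prevention minus OVX the median rose from -0.07 in the shortest group through -0.03, -0.01 and 0.03 to 0.07 in the longest. In the Treatment split the medians were -0.08, -0.03, -0.01, 0.03 and 0.05. In Treatment 5, 6 and 7 minus OVX, which shares the OVX libraries with the main comparison, they ran from -0.02 to 0.04. The Spearman rho with span was 0.338 for Prevention minus OVX, 0.233 for the Treatment split and 0.189 for Treatment 5, 6 and 7 minus OVX, which lies within the low libraries, across genes that share their libraries. The part of gene length in the changes of single genes was not tested.

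**Figure D3:**
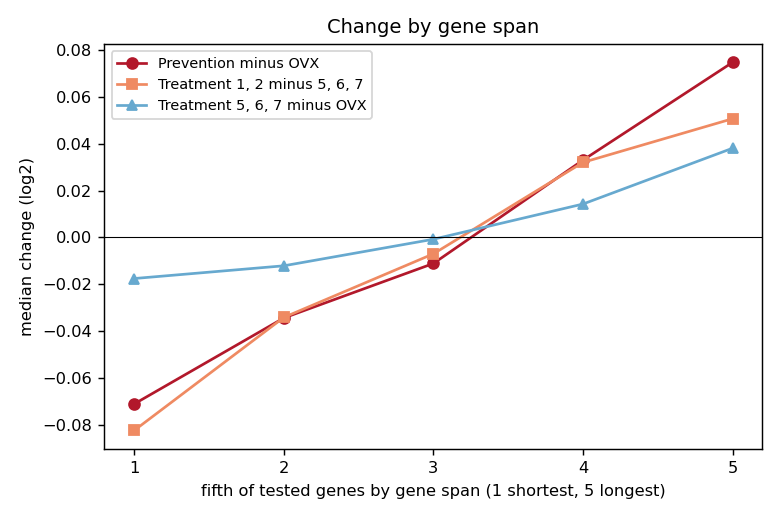
Median log2 change (y axis) in 5 groups of 2750 tested genes ordered by the length of the gene in the reference (x axis, shortest to longest), for Prevention minus OVX, the Treatment split and Treatment 5, 6 and 7 minus OVX. The first 2 lines lie close together, from -0.07 and -0.08 in the shortest genes to 0.07 and 0.05 in the longest, and the other line runs from -0.02 to 0.04.

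Called genes of lysosomes and immune cells fell with a Treatment split below 50% of their change. Cd68, a lysosomal glycoprotein of microglia and macrophages, measured 55.8, 35.0, 40.2, 47.7 and 46.9 in Prevention 1 to 5, against a lowest, median and highest of 60.03, 71.0 and 79.9 in OVX. Every Prevention library lay below every OVX library. It measured 59.5 and 43.4 in Treatment 1 and 2 and 58.5, 56.7 and 49.0 in Treatment 5, 6 and 7, which overlapped. The change was -0.65 (SE 0.14, limma adjusted p = 0.0404), the split -0.10 (SE 0.22), and the difference between them -0.55 (SE 0.26, limma unadjusted p = 0.0490). In the delayed course, Treatment 5, 6 and 7 minus OVX was -0.36 (SE 0.17).

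Grn encodes progranulin, a secreted and lysosomal glycoprotein that regulates lysosomal function in microglia. It measured 1916, 1935, 1813, 1928 and 2087 in Prevention 1 to 5 and 2219.7, 2313 and 2423 as the lowest, median and highest in OVX. The change was -0.25 (SE 0.05, limma adjusted p = 0.0393) and the split -0.04 (SE 0.08), with 1981 and 2020.0 in Treatment 1 and 2 and 2228, 2037 and 1937 in Treatment 5, 6 and 7. SHAM libraries reached from 1766 to 2291 and so overlapped both groups. Lgals9, a galectin that binds glycans on immune cells, measured 438 to 515 in Prevention and 546 to 828.5 in OVX (-0.51, SE 0.09, adjusted p = 0.0248). Its split was -0.17 (SE 0.15), and Treatment 2 (481) was lower than Treatment 1 (651).

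Cd68 and Grn belong to a list of 49 lysosomal genes, of which 19 were higher and 30 lower (median -0.03), with these 2 called. In the Treatment split 40 of the 49 were lower (median -0.09). Npc2, which carries cholesterol out of lysosomes, measured 2895 ± 299 in Prevention and 3453 ± 263 in OVX (SD, n = 5 and 7; -0.26, limma adjusted p = 0.0748; split -0.21). Glb1, lysosomal beta-galactosidase, measured 650.2 ± 57.5 and 783 ± 99.4 (-0.26, adjusted p = 0.0794; split -0.08). Markers of microglia as a whole did not move with Cd68: 10 of 25 were higher and 15 lower (median -0.03), none was called, and their sum ran from 17309 to 20045 normalised counts in Prevention and from 16979.8 to 20328 in OVX. In bulk tissue, fewer cells of a type and less RNA per cell cannot be told apart.

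Interferon-induced and antigen-presentation genes lay lower in Prevention as lists, with few single calls. Of 46 interferon-induced genes tested, 40 were lower and 6 higher, with a median of -0.20, and Lgals9 was the only one called. The Treatment split had a median of -0.03 with 27 lower. Irf7, the transcription factor that amplifies type I interferon responses, measured 127, 135, 145, 135 and 162 in Prevention 1 to 5 and 157, 277 and 369.7 as the lowest, median and highest in OVX. The Prevention values were tight and the OVX values wide, so that the change of -0.91 (SE 0.23) did not pass in limma (adjusted p = 0.0622; split 0.11, SE 0.36). Usp18, which removes the ubiquitin-like modifier ISG15, measured 58.2 to 72.9 and 70.3 to 191 (-0.90, adjusted p = 0.0897; split -0.40). Per library, the mean log2 value of the list ran from 7.38 to 7.55 in Prevention and from 7.37 to 7.998 in OVX, so the groups overlapped. Averaged over libraries, that value was 7.472 in Prevention, 7.707 in OVX and 7.522 in SHAM.

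Complement genes were lower in 18 of 22 (median -0.15), with none called and a Treatment split of -0.07. The mean log2 value of the list was 8.657 in Prevention, 8.825 in OVX and 8.681 in SHAM. C4b measured 35.6 to 54.9 in Prevention and 59.2 to 144 in OVX, without overlap (-0.86, SE 0.22, limma adjusted p = 0.0653; split -0.06, SE 0.36), and C4a measured 1421 ± 261 and 2036 ± 312 (SD, n = 5 and 7; -0.53, adjusted p = 0.0700; split -0.10). C4a and C4b are near-identical copies, so reads may have been divided between them. Cfb, the protease of the alternative pathway, measured 224 to 288 and 271 to 475 (-0.57, SE 0.14, adjusted p = 0.0559; split -0.32). MHC class II genes were lower in 8 of 11 (median -0.38) and in 9 of 11 in the Treatment split (median -0.28). For class II the mean log2 value was 6.961 in Prevention, 7.229 in OVX and 7.328 in SHAM. Cd74, the invariant chain that guides class II molecules, measured 626 ± 141 and 932 ± 169 (-0.59, SE 0.22, adjusted p = 0.159; split -0.68, SE 0.32).

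Other falls of this class were Zfyve19, a regulator of the last step of cell division, from 557 to 712 in OVX to 466.03 to 497 in Prevention (-0.34, SE 0.08; split -0.09), and Sirt7, a nucleolar deacylase that promotes transcription of ribosomal RNA genes. Sirt7 measured 671 to 776 in Prevention, 789 to 932 in OVX, 766 and 702 in Treatment 1 and 2, and 738 to 753 in Treatment 5, 6 and 7. Its change was -0.25 (SE 0.05, limma adjusted p = 0.0393), its split -0.03 (SE 0.08), and the difference -0.23 (SE 0.10, limma unadjusted p = 0.0291). All 5 Treatment libraries lay below the OVX range for Sirt7. Sh3glb2, an endophilin of membrane curvature, fell by 0.24 on the log2 scale (split -0.05) and Ssh3, a phosphatase that activates the actin-severing protein cofilin, by 0.22 (split -0.04).

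The class also held 10 rises. Slc30a1, the exporter that carries zinc out of the cytosol, measured 1156, 1056, 1110.4, 1043 and 1016 in Prevention 1 to 5 and 727, 866 and 1001 as the lowest, median and highest in OVX. The Treatment libraries did not separate, at 956 and 1035 against 1016, 957 and 965. The change was 0.33 (SE 0.06, limma adjusted p = 0.0248), the split 0.02 (SE 0.10), and the difference 0.31 (SE 0.12, limma unadjusted p = 0.0156). Atp2b2, a plasma membrane pump that expels calcium, measured 17997 to 20689 in Prevention and 14510.2 to 16787 in OVX (0.30, SE 0.05, adjusted p = 0.0175; split 0.15, SE 0.08). Treatment 1 and 2 (18668 and 18049) lay above Treatment 5, 6 and 7 (15585, 16276 and 17949.5), so the 2 contrasts shared a direction.

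Pikfyve, the lipid kinase of late endosomes, measured 4206 to 4526 in Prevention and 3306 to 4044 in OVX (0.23, split 0.11), and Pi4k2a, a phosphatidylinositol kinase of the Golgi and endosomes, 1759 to 1933 and 1518 to 1753 (0.19, split 0.06). Tgoln2, which cycles through the trans-Golgi network, measured 5863 to 6376 and 4822 to 5624 (0.21, SE 0.04). Its split was 0.01 (SE 0.07) and the difference 0.20 (SE 0.08, limma unadjusted p = 0.0254). Cd47, the surface signal that restrains phagocytosis, measured 2630.4 to 2746 in Prevention and 2044 to 2610.0 in OVX (0.24, SE 0.05; split 0.12). Megf9, a transmembrane protein, rose by 0.33 (split 0.09), Hectd2, a ubiquitin ligase, by 0.36 (split 0.16) and Zbtb44, a zinc finger protein, by 0.40 (split 0.17), each with overlapping groups.

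In 7 called genes the Treatment split had the opposite sign, and in none of them did Treatment 1 and 2 stand apart from 5, 6 and 7 in the direction of the change. A difference larger than the change follows from how this class was formed, so its p values for the difference are a description. Of these, 3 fell. RT1-T24-4, an MHC class I gene of the rat, measured 681, 669, 704, 678 and 667 in Prevention 1 to 5, a range narrower than in any other group. Its lowest, median and highest values in OVX were 747, 982 and 1161, with OVX 1 well below the next library (963), and SHAM ran from 678 to 923. Treatment 1 and 2 measured 970.0 and 767, and Treatment 5, 6 and 7 measured 839, 1005 and 677. The change was -0.55 (SE 0.10, limma adjusted p = 0.0175), the split 0.06 (SE 0.16), and the difference -0.61 (SE 0.18, limma unadjusted p = 0.00303). Class I genes are near-identical copies whose reads can be divided among loci, so the level of this locus is uncertain. Of 29 genes of class I presentation, 22 were lower (median -0.15), and RT1-T24-4 was the only one called; its neighbour in name, RT1-T24-3, measured 254 ± 66.8 and 368 ± 68.2 (SD, n = 5 and 7; -0.55, adjusted p = 0.104; split 0.30).

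Traf3ip3, an adaptor known from lymphocytes, measured 90.3, 73.1, 67.2, 74.9 and 87.0 in Prevention 1 to 5 and 94.9, 114 and 118 as the lowest, median and highest in OVX. The change was -0.48 (SE 0.10, limma adjusted p = 0.0393), the split 0.13 (SE 0.16), and the difference -0.61 (SE 0.19, limma unadjusted p = 0.00323). Pagr1, a component of a histone methyltransferase complex, measured 804, 801, 798, 736 and 905 against 942, 1029 and 1178. Here too no Prevention library reached the lowest OVX library. The change was -0.36 (SE 0.06, adjusted p = 0.0175), the split 0.01 (SE 0.09), and the difference -0.37 (SE 0.11, limma unadjusted p = 0.00298). Treatment 5, 6 and 7 differed from OVX by -0.38 (SE 0.12) for Traf3ip3 and by -0.18 (SE 0.07) for Pagr1.

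Insig1 and Fdft1, one gene of sterol control and one of sterol synthesis, rose without a Treatment split in that direction. Insig1 encodes the protein of the endoplasmic reticulum that retains the sterol-sensing complex when cholesterol is ample, and is itself a target of that pathway. It measured 3531, 4149, 3159, 3855 and 2979 in Prevention 1 to 5 and 2345, 2626 and 3095 as the lowest, median and highest in OVX, so Prevention 5 fell within the OVX range. Treatment 1 and 2 measured 3004 and 3300.2, and Treatment 5, 6 and 7 measured 3448, 3127 and 3153. The change was 0.37 (SE 0.08, limma adjusted p = 0.0404), the split -0.04 (SE 0.13), and the difference 0.41 (SE 0.15, limma unadjusted p = 0.0118). The second gene, Fdft1, encodes squalene synthase, the first enzyme committed to sterols. It measured 3330.4, 3927, 3319.5, 3681 and 3558 against 2982, 3110.3 and 3324, with Prevention 3 just inside the OVX range. The change was 0.19 (SE 0.04, adjusted p = 0.0481), the split -0.07 (SE 0.06), and the difference 0.26 (SE 0.08, limma unadjusted p = 0.00248).

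The other sterol genes were read from a list of 20 synthesis genes and one of 18 tested genes of control, uptake and efflux. Of the synthesis genes 14 were higher and 6 lower (median 0.07), against 9 higher and 11 lower in the Treatment split (median -0.01); of the control genes 9 were higher and 9 lower (median -0.01). Stard4, which moves cholesterol between membranes, measured 595 to 790.2 and 423 to 592 without overlap (0.39, SE 0.09, adjusted p = 0.0510; split -0.05). The lower members included Tm7sf2, a sterol reductase, with a change of -0.24 (adjusted p = 0.0622; split 0.05), and Apoe, the main lipoprotein of the brain, at 109159 ± 10518 against 135591 ± 11569 (SD, n = 5 and 7; -0.31, adjusted p = 0.0622; split -0.08). Treatment 5, 6 and 7, all low in LOC257642, differed from the same OVX libraries by 0.23 (SE 0.05) for Fdft1, 0.25 (SE 0.10) for Insig1 and 0.36 (SE 0.11) for Stard4. In that contrast limma called 0 genes, with 562 of 16119 at an unadjusted p under 0.05, a share below 0.05 itself.

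Btbd3, which orients dendrites toward active input, measured 5782, 5174, 4953, 4908 and 4574 in Prevention 1 to 5, all above the OVX range of 3643 to 4534. The change was 0.30 (SE 0.05, limma adjusted p = 0.0175), the split -0.03 (SE 0.08), and the difference 0.33 (SE 0.10, limma unadjusted p = 0.00334). Nalcn, the sodium leak channel that sets the resting potential of neurons, measured 4454 to 5114 in Prevention and 3703 to 4623 in OVX (0.24, SE 0.05, adjusted p = 0.0393). Its split was -0.01 (SE 0.08) and the difference 0.25 (SE 0.10, limma unadjusted p = 0.0160).

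**Figure D4:**
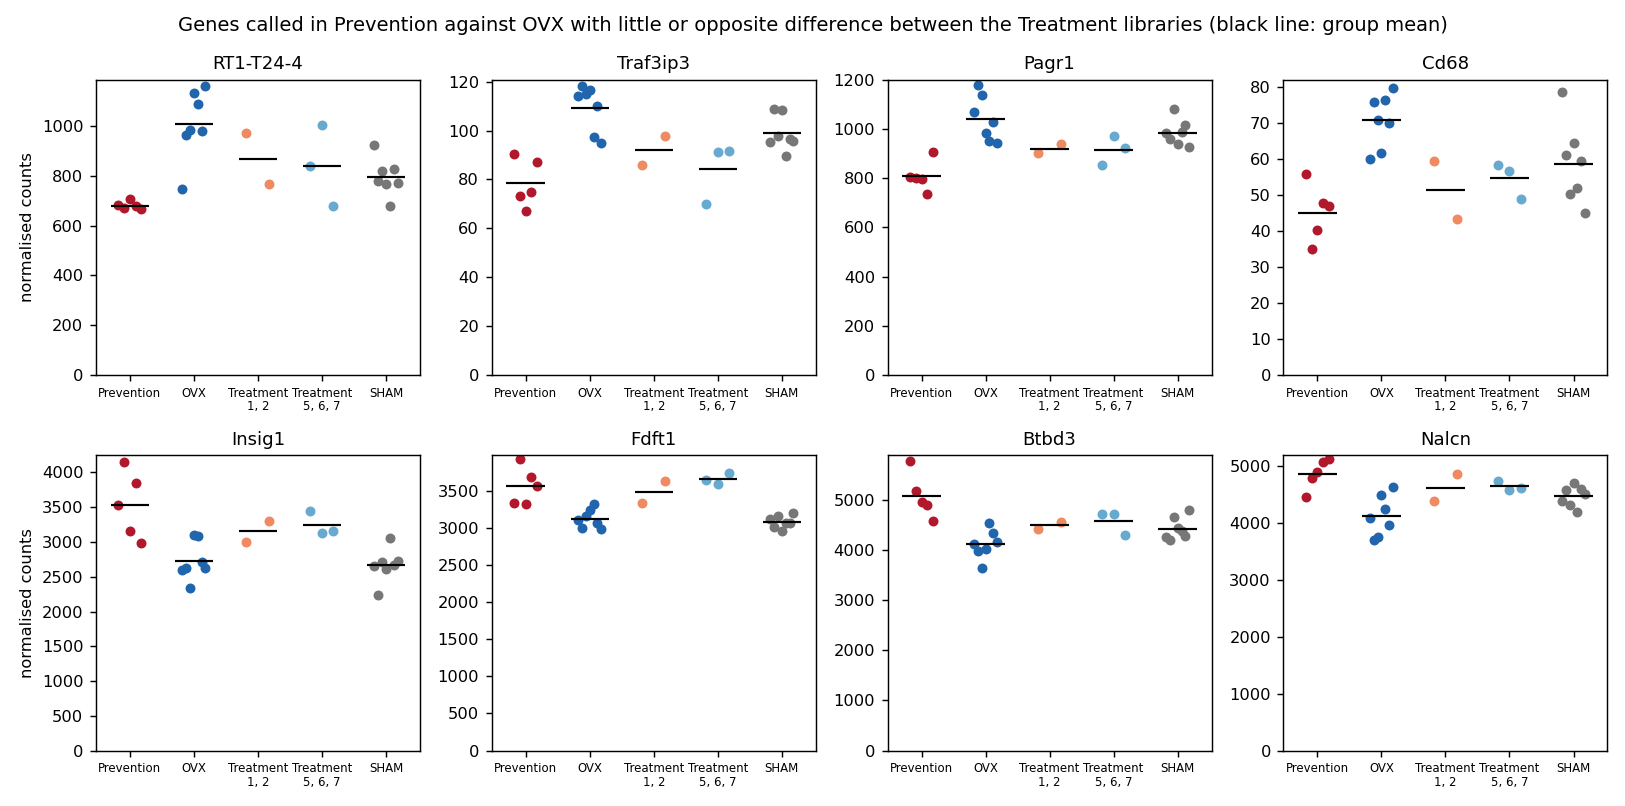
Normalised counts (y axes start at 0) of 8 called genes by group, with Treatment divided into 1, 2 and 5, 6, 7; points are libraries and black lines group means. In the upper row Prevention lies below OVX, as for Cd68 (35.0 to 55.8 against 60.03 to 79.9), in the lower row above it, and Treatment 1 and 2 are not set apart from 5, 6 and 7 in that direction.

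Receptors and known targets of estradiol showed no called change. Esr1, the nuclear receptor alpha, measured 33.4 to 145 in Prevention and 58.0 to 161 in OVX (-0.11, SE 0.33, limma adjusted p = 0.902), Esr2, receptor beta, 18.3 to 35.5 and 10.6 to 32.7 (0.30, SE 0.27, adjusted p = 0.606), and Gper1, the membrane receptor, 69.2 to 91.5 and 49.9 to 99.9 (0.03, SE 0.15, adjusted p = 0.945). The groups overlapped for all 3 genes. Pgr, the progesterone receptor, a classical target, measured 391, 492, 473, 540.0 and 487 in Prevention 1 to 5 against 315, 381 and 505 as the lowest, median and highest in OVX (0.27, SE 0.12, adjusted p = 0.223; split -0.08). Greb1, another target, measured 242 ± 31.9 and 219 ± 32.6 (SD, n = 5 and 7; 0.15, adjusted p = 0.542; split 0.13). Of 27 estrogen-responsive genes tested, 20 were higher and 7 lower (median 0.09, split 0.01), with Igf1r, the receptor of insulin-like growth factor, at 890.0 to 1151 against 616 to 832 (0.40, SE 0.11, adjusted p = 0.0675; split 0.42, SE 0.15).

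Synaptic genes lay slightly higher. Of 46 glutamate receptor and postsynaptic scaffold genes, 40 were higher and 6 lower (median 0.09), and 29 were higher in the Treatment split (median 0.07). Their mean log2 value was 12.23 in Prevention, 12.11 in OVX and 12.22 in SHAM. Grin2b, an NMDA receptor subunit encoded by a long gene, measured 3189, 3497, 5850.4, 3206 and 3212 in Prevention 1 to 5 against 1664, 2204 and 2755 as the lowest, median and highest in OVX. Prevention 3, also the highest for LOC257642, was the highest for Grin2b, and the groups did not overlap (0.72, SE 0.17, limma adjusted p = 0.0532; split 0.44, SE 0.25). Of 27 genes of GABA signalling and interneurons, 18 were higher (median 0.07, split 0.00). Gabra4, a GABA receptor subunit, measured 5181 ± 758 and 4206 ± 320.0 (SD, n = 5 and 7; 0.29, SE 0.08, adjusted p = 0.0649; split 0.00), and the neuropeptide somatostatin, Sst, 1737 ± 394 and 2344 ± 349 (-0.45, SE 0.14, adjusted p = 0.0894; split -0.12).

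Neighbouring tissue differed between libraries in both contrasts. The 18 choroid plexus markers summed to 2984 to 90260.4 normalised counts in Prevention and 2334 to 93040.2 in OVX, with high and low libraries in each. They summed to 2050.1 and 2207 in Treatment 1 and 2 and reached from 3190.4 to 91062 in Treatment 5, 6 and 7. Their median change was 0.46 (16 of 18 higher, none called), and their median Treatment split -2.42 (0 of 18 higher). Thalamus and habenula markers had medians of 0.33 (15 of 20 higher) and -0.60 (3 of 20 higher). Oligodendrocyte markers had medians of -0.03 and -0.33. No choroid plexus, thalamus or habenula marker was at 0 in all libraries of a group. With the choroid or the thalamus score as a covariate, limma called 265 and 589 genes, and these included all 49. The thalamus list itself holds 1 of the 49. Both fits called more genes than the fit without a score, so a call kept in them does not measure the part of these tissues. That part, in the changes and in the Treatment split, was not tested.

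**Figure D5:**
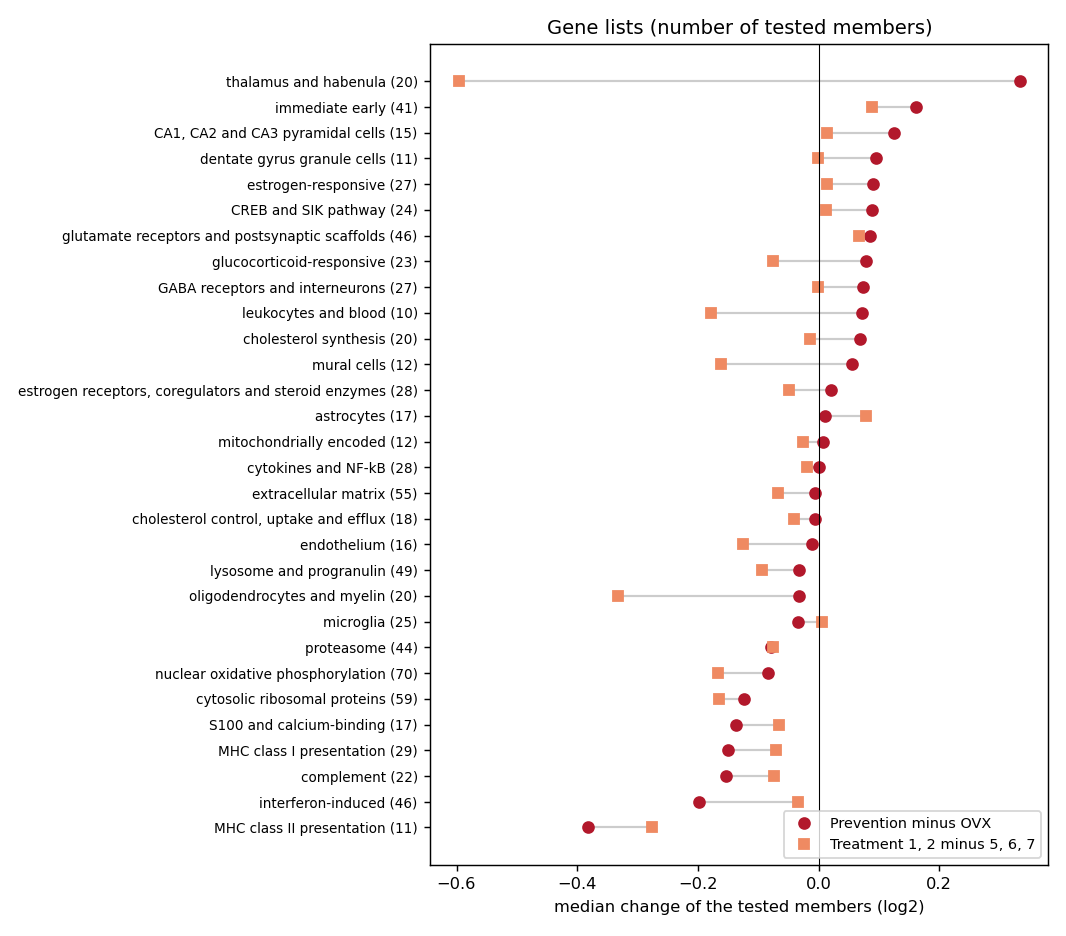
Median log2 change (x axis) of the tested members of 30 gene lists (y axis, number of members in brackets) in Prevention minus OVX (circles) and in the Treatment split (squares); the choroid plexus list, at 0.46 and -2.42, and a list of nuclear noncoding RNA with 1 member are not drawn. Ribosomal and oxidative phosphorylation genes lie below 0 in both, interferon-induced genes lie at -0.20 and -0.03, and thalamus markers on opposite sides of 0.

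Of the 11 called genes with an unadjusted p under 0.05 for the difference from the Treatment split, 7 have been given above as opposite in sign, and 4, Slc30a1, Tgoln2, Sirt7 and Cd68, as same in sign and smaller. Such a p was found for 573 of 16119 tested genes. The 11 had been called on the change that the difference contains, so their p values do not test whether a change is apart from the shared property. Among all tested genes, some of the smallest such p values came with a Treatment split larger than the change. Dlx4, a homeobox gene, changed by -0.33 (SE 0.16) with a split of 0.74 (SE 0.20), Kcnj8, a potassium channel subunit of pericytes, by 0.33 (SE 0.14) with a split of -0.59 (SE 0.18), and Adcyap1r1, the receptor of the neuropeptide PACAP, by -0.05 (SE 0.06) with a split of 0.27 (SE 0.07). Their unadjusted p values for the difference were 0.000171, 0.000267 and 0.000579, and none passed after adjustment. Sgk1, a kinase induced by glucocorticoids, measured 4044 to 8641 in Prevention and 3195 to 5497 in OVX (0.55, SE 0.19, limma adjusted p = 0.129), and it was higher still in Treatment 5, 6 and 7 (6344, 7745 and 10355), giving a split of -0.34 (SE 0.30). Prevention minus Treatment 1 and 2, both high in LOC257642, had 0 genes called in limma and 630 of 16119 at an unadjusted p under 0.05, a share below 0.05 itself.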

How the data were processed

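RNA of frozen rat hippocampus was extracted with TRIzol and columns and sequenced as Illumina libraries, per the labels' protocols. The authors deposited a table of normalised signal per feature and library, for which kallisto 0.43 and DESeq2 are named in the submitters' processing notes. Build and annotation were not given in the sources used here. Whole reads could not be recovered from these values, so raw depth is unknown and no counting interval is given. The table holds 20318 features, 2378 of them without a symbol. The 16119 with a mean of at least 10 were tested.

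Values were analysed as log2(value + 1) in R 4.3.3 with limma 3.58.1 (moderated statistics with trend, Benjamini-Hochberg adjustment over all tested features, two-sided, threshold 0.05). Every p value in the text, adjusted or not, is from limma. Prevention minus OVX was fitted on all 24 libraries with one mean per group. The Treatment split, its difference from the change, and Treatment 5, 6 and 7 minus OVX came from a fit with 2 Treatment means. The procedure was tested on simulated data. Some members of the sterol lists that the naming rule picks are not reported here. Members and gene lists were chosen with earlier results of these data known. Genes named were the called genes, the members of each list with the smallest p, the receptors and targets of estradiol, and the genes with the smallest p for the difference and the split. Of 17940 symbols, 15697 were matched to RefSeq. In all, 205 features had values identical to another's, none of them called. Figures were drawn with matplotlib 3.10.9.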

Additional observations from a re-analysis of the deposited data

Results flagged for a closer look

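A library stood apart from the rest of its group, by a gap larger than Dixon's 95% critical value, in 9 of 162 groups tested, and chance gives about 1 in 20. Prevention 3 stood above the other 4 libraries for LOC257642 (868948.0 against 128837 to 159539), LOC500035 (68768.8 against 10431 to 13561) and the feature UNKOWN_ENSRNOT00000074325 (642411.0 against 159324 to 227103). OVX 3 was high for Cox17 (1350.88 against 987 to 1124), OVX 7 high for Fam8a1 (1757.61 against 1257 to 1424) and OVX 1 low for RT1-T24-4 (746.593 against 963 to 1161). Among the mean log2 values of gene lists, Prevention 2 was high for cholesterol synthesis (11.1541 against 10.99 to 11.02), OVX 3 was low for cholesterol control, uptake and efflux (11.2222 against 11.36 to 11.44), and OVX 3 was low for the CREB pathway (10.6969 against 10.84 to 10.92).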

How the results depend on the processing

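For Prevention minus OVX, the 49 calls became 97 with a mean of at least 100, 5 with only the groups compared, 254 with 2 Treatment means, 265 and 589 with the choroid plexus and the thalamus score as covariates, and 0 with the library set as a covariate. Without 1 library they ranged from 1 to 481. The 25 calls also seen in the Treatment split became 52, 5, 180, 128 and 225 in the first 5 of these fits, and were 5 when the split had to be as large as the change. Without 1 library they ranged from 1 to 246. The 28 calls with Treatment libraries apart became 54, 4, 173, 151 and 310, with a range of 1 to 274 without 1 library. The 4 calls of the Treatment split became 2 with robust empirical Bayes and 2 with the choroid plexus score, and ranged from 2 to 78 without 1 library (78 without Treatment 2, 22 without Prevention 3). Calls ranged from 0 to 1 for the difference, 0 to 1 for Treatment 5, 6 and 7 minus OVX, and 0 to 2 for Prevention minus Treatment 1 and 2. With the library set as a covariate the sign reversed for Akap10 (-0.019), LOC257642 (-0.49), LOC500035 (-0.66), S100a1 (0.025) and UNKOWN_ENSRNOT00000074325 (-0.45). The cause of these shifts was not tested. With a replicate block the 49 calls became 3, of which 2 were also seen in the Treatment split and 2 had Treatment libraries apart. Whether replicate numbers pair the samples cannot be decided from 5 pairs of libraries that also differed in neighbouring tissue. Same-numbered Prevention and OVX libraries correlated between -0.292 and 0.253, with 2 pairs over 0.1. Of the 5 Prevention libraries, 1 correlated best with its own number. The files hold normalised values only, so what depth limits could not be measured.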
